A study of Homo sapiens with 6 samples.

Results

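The PTBP genes PTBP1, PTBP2 and PTBP3 encode the polypyrimidine tract-binding proteins, and their introns were examined for RNA that stayed protected from nuclease in purified Rbfox1 complexes. The members were the rows of both deposited lists of intronic clusters that name one of these 3 genes, with repeated rows dropped. A cluster is a stretch of an intron recovered as protected RNA. The rule found 309 of 366429 clusters in the list of wild-type Rbfox1 (WT) and 186 of 188027 in the list of Rbfox1 F125A, and it took 3 of the 11805 genes named alone in either list. No member row was repeated.

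Complexes of FLAG-tagged Rbfox1 with LASR, an assembly of splicing proteins, were taken from HEK293 Flp-In, a line of human embryonic kidney origin that can receive a transgene at a fixed site. All groups carried the Rbfox2 knockout of the line KO#7. The WT group had 3 samples with FLAG-Rbfox1(WT). The F125A group had 2 samples with FLAG-Rbfox1(F125A), in which a phenylalanine of the RNA-binding domain is replaced by alanine. The Control group had 1 sample of the knockout line without a transgene, which was not analysed here. Each Rbfox1 group had 1 list, so no value has a replicate error, and no test of WT against F125A was possible. The intervals given are exact 95% intervals for counting error only, and they treat clusters as independent. The lists give places and no read counts, so read depth is unknown. They held 1.95 WT clusters for each F125A cluster. None of 8 genes characteristic of liver, blood, muscle, pancreas or glia had a cluster, but intronic clusters do not check which cells were used. Introns of RBFOX2, the gene knocked out, still gave 407 WT and 221 F125A clusters.

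As background, PTBP proteins bind pyrimidine-rich RNA through RNA recognition motifs and mostly repress the exons they flank. PTBP1 is made in most cell types. PTBP2 replaces it in developing neurons, where PTBP1 is lowered by a microRNA, and in other cells PTBP1 causes skipping of an exon of the PTBP2 transcript, which is then degraded. PTBP3, first described as ROD1, is a further relative found in blood and other cells. Rbfox proteins bind the pentamer GCATG, in DNA letters, and regulate exons of many RNA-binding protein genes, PTBP2 among them.

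Sequences come from RefSeq (GRCh38.p14), which matched a promoter window for all 3 genes and a microRNA inside PTBP1. They are shown because they are the member clusters for which these RefSeq tables hold sequence. A neighbouring pair of clusters of PTBP2 in each list lay in its promoter window, 1 microRNA hairpin of PTBP1 was touched by a cluster, and no cluster lay in the promoter windows of PTBP1 or PTBP3. Below is the window of PTBP2 on the plus strand, chr1:96722388-96722687, 5′ to 3′, with the bases inside clusters in capitals.
PTBP2 window, WT clusters: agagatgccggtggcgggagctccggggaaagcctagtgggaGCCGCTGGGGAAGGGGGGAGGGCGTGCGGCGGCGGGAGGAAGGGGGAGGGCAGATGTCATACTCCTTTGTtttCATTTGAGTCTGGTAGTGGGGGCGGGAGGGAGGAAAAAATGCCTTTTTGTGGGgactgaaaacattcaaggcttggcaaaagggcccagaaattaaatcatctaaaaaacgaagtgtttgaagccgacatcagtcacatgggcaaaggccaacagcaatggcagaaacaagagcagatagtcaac
PTBP2 window, F125A clusters: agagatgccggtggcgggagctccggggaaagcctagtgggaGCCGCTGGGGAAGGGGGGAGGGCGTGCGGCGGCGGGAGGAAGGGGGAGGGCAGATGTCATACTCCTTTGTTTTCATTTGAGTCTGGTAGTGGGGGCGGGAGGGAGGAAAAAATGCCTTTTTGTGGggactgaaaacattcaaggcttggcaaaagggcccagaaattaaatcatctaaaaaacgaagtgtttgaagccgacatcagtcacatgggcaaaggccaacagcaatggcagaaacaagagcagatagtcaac

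Both forms of Rbfox1 recovered nearly the same bases at this place. Of its 300 bases, WT clusters covered 41.0% and F125A clusters 41.7%. The WT list had chr1:96722430-96722499 and chr1:96722503-96722555, of 70 and 53 nt. The F125A list had chr1:96722430-96722496 and chr1:96722497-96722554, of 67 and 58 nt. The first of each pair began at the same base in both lists. These clusters ended 142 to 83 bases before the start site that the window is built on, at 96722638, and they lay inside the annotated gene, which begins at 96721784. The lists call them intronic, and exon positions were not used here.

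The first of these clusters was richer in G and C than the second. The first cluster was 70% G or C in the WT list and 71.6% in the F125A list, and the second was 52.8% and 48.3%. Pyrimidines made up 31.4% and 35.8% of the WT clusters and 29.9% and 41.4% of the F125A clusters, in the same order. Neither GCATG nor the pyrimidine tetramers TCTT and CTCT, which are among those bound by PTBP proteins, occurred in any of the 4 clusters on either strand. TGTT, another tetramer searched, occurred once, in the second F125A cluster, on the transcribed strand. TCTT and CTCT can overlap each other in a longer tract.

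The same search was made over all clusters that lay wholly inside a promoter window of their own gene, 613 WT clusters with a median length of 52 nt and 543 F125A clusters with a median of 56 nt. On the transcribed strand, 10.1% of those WT clusters and 2.76% of those F125A clusters held GCATG, while TCTT was in 97 WT and 60 F125A clusters, CTCT in 73 and 57, and TGTT in 20.4% and 14.9% of them. Their median content of G and C was 66.7% in the WT list and 69.2% in the F125A list, a little below the first PTBP2 cluster and above the second. Their median pyrimidine content was 34.7% in the WT list and 33.8% in the F125A list, near that of the PTBP2 clusters. Of 34796 promoter windows of 300 bases, 29.4% held GCATG on either strand, 82.4% TCTT, 94.7% CTCT and 74.1% TGTT. The PTBP2 window itself held GCATG on neither strand. A missing motif says only that these letters are not in this stretch.

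PTBP1 holds the hairpin of the microRNA miR-4745 on its own strand, chr19:804940-805001. It is shown because an F125A cluster, and no WT cluster, covered part of it. Capitals mark the covered bases in the hairpin, and the seed (bases 2 to 8) in the mature strand.
MIR4745 hairpin, F125A cluster: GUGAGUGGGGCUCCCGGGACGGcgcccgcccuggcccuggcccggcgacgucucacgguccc
hsa-miR-4745-5p: uGAGUGGGgcucccgggacggcg

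The cluster, chr19:804926-804961, was 36 nt long, began 14 nt before the hairpin and covered its first 22 of 62 nt. It held 21 of the 23 nt of the 5p strand, its whole seed among them, and none of the 3p strand. The nearest WT cluster, chr19:805717-805763, lay 716 nt away. Whether the protected RNA came from the hairpin or from the intron around it cannot be told from a place alone. Of 708 annotated hairpins inside genes with clusters, 72 (10.2%, interval 8.04 to 12.6%) touched a WT cluster and 79 (11.2%, 8.93 to 13.7%) an F125A cluster.

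PTBP2 held most of the family's clusters with either protein. In the WT list PTBP2 had 244 clusters (interval 214 to 277), PTBP3 43 (31.1 to 57.9) and PTBP1 22 (13.8 to 33.3). In the F125A list PTBP2 had 156 (132 to 182), PTBP1 21 (13.0 to 32.1) and PTBP3 9 (4.12 to 17.1). PTBP2 thus made up 79.0% of the family's WT and 83.9% of its F125A clusters. PTBP1 and PTBP3 differed in order between the lists: PTBP3 had the more WT clusters and PTBP1 the more F125A clusters. Their intervals overlapped in each list. Among all genes, PTBP2 ranked 154th by WT and 88th by F125A clusters.

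**Figure D1:**
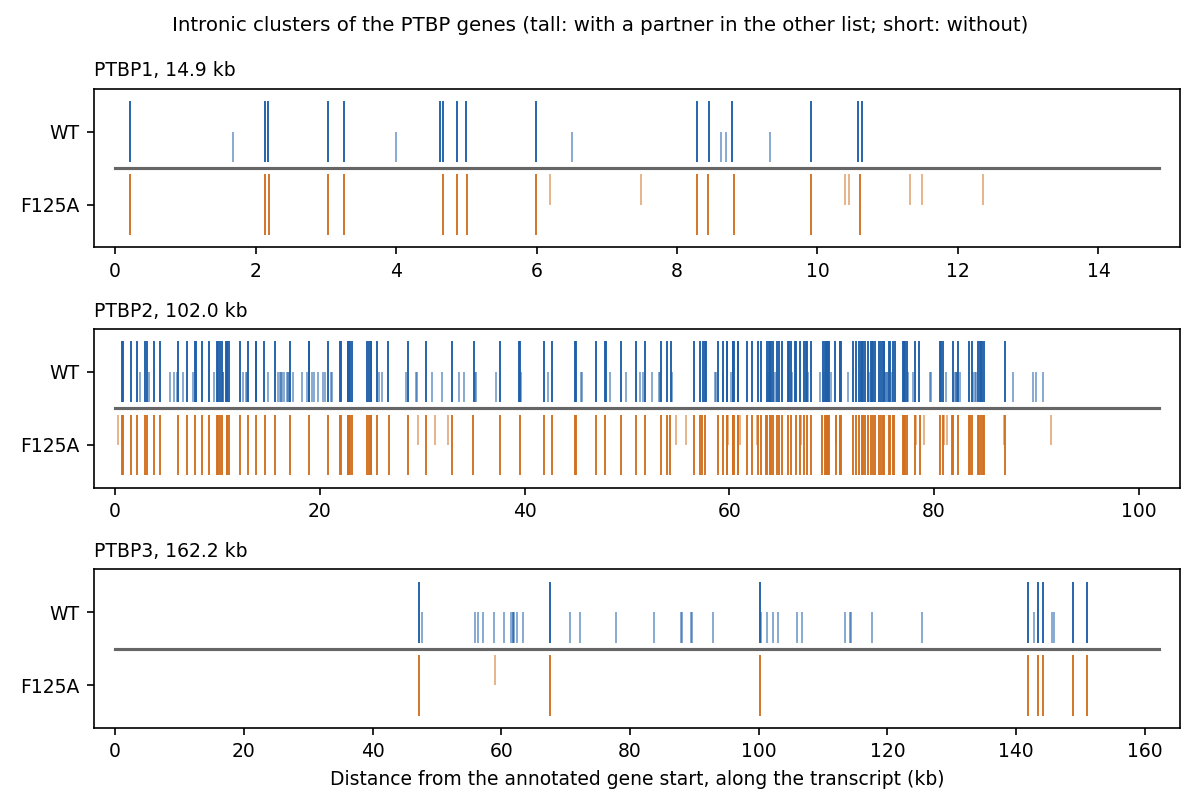
Map of the intronic clusters of PTBP1, PTBP2 and PTBP3, drawn to scale as distance in kb from the annotated gene start along the transcript, with WT clusters above each line and F125A clusters below it. Tall marks have a partner in the other list and short marks have none; PTBP2 is dense in both lists, 35 of the 43 WT marks of PTBP3 are short, and its first 47.183 kb are empty.

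The genes differ in length, so their levels were compared per kb of annotated gene. PTBP1 on chromosome 19 (797452 to 812312, plus strand) is 14.9 kb long, PTBP2 on chromosome 1 (96721784 to 96823739, plus strand) 102 kb and PTBP3 on chromosome 9 (112217715 to 112379882, minus strand) 162 kb. Per kb, the WT order was PTBP2 with 2.39 clusters (2.10 to 2.71), PTBP1 with 1.48 (0.93 to 2.24) and PTBP3 with 0.27 (0.19 to 0.36). The F125A order was the same, with 1.53 (1.30 to 1.79), 1.41 (0.87 to 2.16) and 0.055 (0.025 to 0.11). PTBP2 and PTBP1 had overlapping intervals in both lists, and PTBP3 lay below both.

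Set against 5626 genes whose WT and F125A clusters together numbered at least 20, PTBP2 and PTBP1 had many clusters per kb and PTBP3 few. The median gene had 0.58 WT and 0.30 F125A clusters per kb. PTBP2 ranked 61st by WT and 138th by F125A clusters per kb, and PTBP1 370th and 165th. PTBP3 ranked 4758th and 5290th. Among the 281 tested genes of 92.4 to 106 kb, PTBP2 had the most WT clusters and the second most F125A clusters, where the median gene had 47 and 23. PTBP1 ranked 44th by WT and 24th by F125A clusters of the 282 genes in its length class, whose median was 15 and 12. PTBP3 ranked 191st and 238th of 282, with medians of 62.5 and 27, and its 43 WT clusters lay inside the quartiles of that class (35 and 106). Clusters covered 16.7% of the PTBP2 gene in the WT list and 11.9% in the F125A list, 7.71% and 8.90% of PTBP1, and 1.62% and 0.30% of PTBP3.

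Relative to the list totals, the members leaned apart. The lean is log2 of WT clusters over F125A clusters after adding 1 to both counts, less the same quantity for the list totals (0.96), so a lean of 0 means 1.95 WT clusters per F125A cluster. PTBP3 had 4.78 WT clusters for each F125A cluster and a log2 ratio of 1.17 (interval 0.24 to 2.52), and 7 of the 282 genes in its length class (143 to 169 kb) leaned further to WT. PTBP2 had 1.56 WT clusters per F125A cluster and a ratio of -0.32 (-0.61 to -0.02). PTBP1 had 1.05 and a ratio of -0.90 (-1.83 to 0.04), an interval that takes in 0. The interval of PTBP3 lay above both others, and those of PTBP1 and PTBP2 overlapped. Intervals of log2 ratios come from the exact interval of the WT share of the clusters, with nothing added to the counts.

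Of the 3 members, 1, PTBP3, lay 2-fold or more toward WT, as did 2.51% of the genes tested, and none lay 2-fold or more toward F125A, as did 1.99%. With 5 in place of 1 added to each count, PTBP3 lay at 0.82, inside 2-fold. The ratio depends on gene length over the whole table, and PTBP1 falls in its shortest class: the 282 tested genes of 2.47 to 16.0 kb had a median of -0.72, and relative to them PTBP1 lay at -0.18. Relative to genes of similar length PTBP2 lay at -0.36 and PTBP3 at 1.04, and on that scale 2.04% of tested genes passed 2-fold toward WT and 0.462% passed it toward F125A. The order PTBP3, PTBP1, PTBP2 after this correction differs from the order PTBP3, PTBP2, PTBP1 before it.

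**Figure D2:**
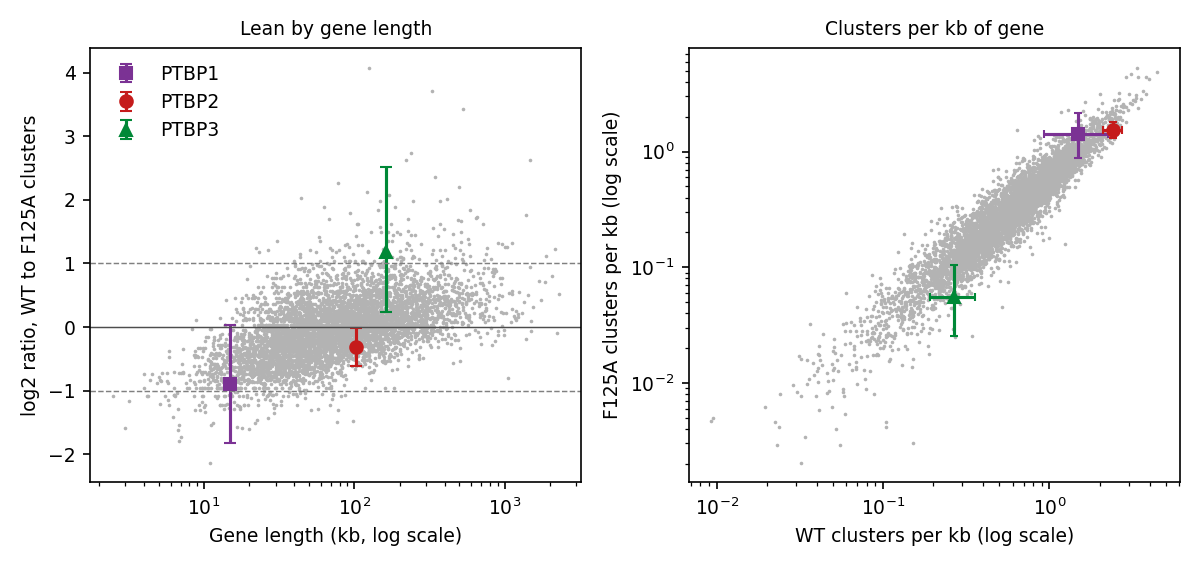
Left, log2 ratio of WT to F125A clusters relative to the list totals against gene length (log scale) for the 5626 genes tested, with dashed lines at 2-fold; right, F125A against WT clusters per kb of gene (both log scales), without genes at 0 in either list. Grey points are genes, coloured points the PTBP genes with exact 95% counting intervals; PTBP3 lies at 1.17 with few clusters per kb, and PTBP1 and PTBP2 lie at the dense end.

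Overlap showed how far the places were shared. A cluster has a partner if a cluster of the other list shares at least 1 nt with it on the same strand. Of the PTBP2 clusters, 151 of 244 WT (61.9%, interval 55.5 to 68.0%) and 139 of 156 F125A (89.1%, 83.1 to 93.5%) had one. Over the whole lists these shares were 45.2% and 85.5%. PTBP2 lay above the WT share by more than its counting error, and its F125A interval took in the whole-list share. A WT share also depends on how many F125A clusters the gene has. PTBP2 had 1.56 WT clusters per F125A cluster and PTBP1 1.05, against 1.95 over the lists. The shares were not adjusted for this or for clusters per kb.

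For PTBP1 the shares of the WT and F125A lists had overlapping intervals. Of its clusters, 16 of 22 WT (72.7%, 49.8 to 89.3%) and 14 of 21 F125A (66.7%, 43.0 to 85.4%) had a partner. The WT share lay above the 45.2% of the whole list by more than its counting error. The F125A share, whose interval ended just below the 85.5% of the whole list, lay at percentile 6.38 of the genes tested, and 7 F125A clusters had no WT counterpart. Tested genes of the same length class had a median F125A share of 84.4% and a median WT share of 71.4%.

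Most WT places of PTBP3 were not in the F125A list. Only 8 of its 43 WT clusters (18.6%, 8.39 to 33.4%) had a partner, which is percentile 2.33 of the genes tested, whereas 8 of 9 F125A clusters (88.9%, 51.8 to 99.7%) had one. With only 9 F125A clusters few of the 43 can have a partner, and a loss of the other 35 places with F125A is not shown.

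Counted as places, with overlapping clusters of both lists joined, PTBP1 had 27 places, of which 14 were common to both, 6 were found with WT alone and 7 with F125A alone. PTBP2 had 229, of which 119 were in both (52.0%, 45.3 to 58.6%), 93 with WT alone and 17 with F125A alone. PTBP3 had 44, of which 8 were in both (18.2%, 8.19 to 32.7%), 35 with WT alone and 1 with F125A alone. Over all genes 40.0% of places were in both lists, 52.8% were found with WT alone and 7.16% with F125A alone. The shares with F125A alone were 25.9% for PTBP1, 7.42% for PTBP2 and 2.27% for PTBP3. Those with WT alone were 22.2%, 40.6% and 79.5%. Like the partner shares, these were not adjusted for the number of clusters of each gene.

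**Figure D3:**
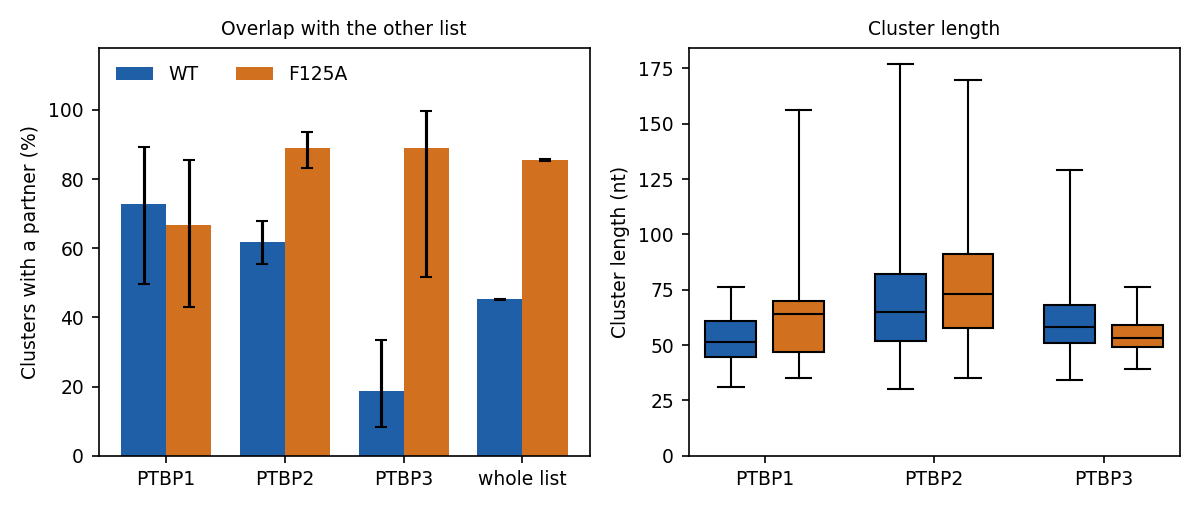
Left, percentage of the clusters of each PTBP gene, and of the whole list, that overlap a cluster of the other list, with exact 95% counting intervals; right, cluster length in nt, with boxes from the lower to the upper quartile, a line at the median and whiskers to the shortest and longest cluster. The WT bars run from 18.6% for PTBP3 to 72.7% for PTBP1, and PTBP2 has the longest median in each list.

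Clusters of PTBP2 were longer than most. With WT its clusters had a median of 65 nt (quartiles 52 and 82.3), against 60 nt over the whole list. With F125A the median was 73 nt (quartiles 57.8 and 91.3), against 64 nt. Among the F125A clusters of PTBP2, 28 (17.9%, 12.3 to 24.9%) were at least 100 nt long, against 11.9% over the list, and among its WT clusters 23 (9.43%, 6.07 to 13.8%) against 8.18%. PTBP1 had a median of 51.5 nt with WT and 64 nt with F125A, and PTBP3 58 and 53 nt. The 9 F125A clusters of PTBP3 ranged from 39 to 76 nt.

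Where a cluster of each list overlapped only the other, their lengths could be compared directly. PTBP2 had 88 such pairs, in which the F125A cluster was the longer in 39, the WT cluster in 46, and 3 were equal, with a median difference, F125A minus WT, of -1 nt, as over all genes. The longer F125A median of PTBP2 thus did not appear between these matched pairs. The pairs leave out F125A clusters that overlap more than 1 WT cluster. Their WT median was 73 nt, against 65 nt for all WT clusters of PTBP2, so they do not stand for the clusters outside them. In PTBP2, WT clusters with a partner had a median of 69 nt and those without one 60 nt, and both kinds of F125A cluster had 73 nt. PTBP1 had 12 pairs, 8 with the longer F125A cluster, and PTBP3 8 pairs, 3 with the longer F125A cluster, 3 with the longer WT cluster and 2 equal. The centres of a pair lay a median of 7 nt apart in PTBP2, 4.75 nt in PTBP1, 3.75 nt in PTBP3 and 4 nt over all genes.

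Along PTBP2 both lists were densest in parts 6 to 8 of the gene. In 10 equal parts of the gene from start to end, WT clusters numbered 25, 36, 24, 13, 14, 28, 39, 43, 22 and 0. F125A clusters in the same parts numbered 16, 12, 17, 6, 8, 21, 32, 30, 14 and 0. Parts 1 to 3 held 2.78 WT and 1.47 F125A clusters per kb, parts 4 and 5 held 1.32 and 0.69, and parts 6 to 8 held 3.60 and 2.71, against 2.39 and 1.53 over the whole gene. With WT, parts 1 to 3 thus lay above the mean of the gene, and with F125A slightly below it. These blocks were chosen after the values were seen. WT clusters with a partner in the same parts numbered 16, 15, 16, 5, 9, 18, 32, 30 and 10. Fewer than 1 in 2 WT clusters thus had a partner in parts 2 (15 of 36), 4 (5 of 13) and 9 (10 of 22). More than 1 in 2 had one in parts 1, 3, 5, 6, 7 and 8, with the highest share in part 7 (32 of 39). Over the whole gene the share was 61.9%, and differences between parts were not tested. Of the 17 F125A clusters of PTBP2 without a partner, 13 lay beyond the midpoint of the gene. Most F125A clusters of PTBP2 lay there too, 53.2% of them in parts 6 to 8 and 8.97% in parts 9 and 10. The unpartnered clusters are thus not shown to differ in place from the rest.

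**Figure D4:**
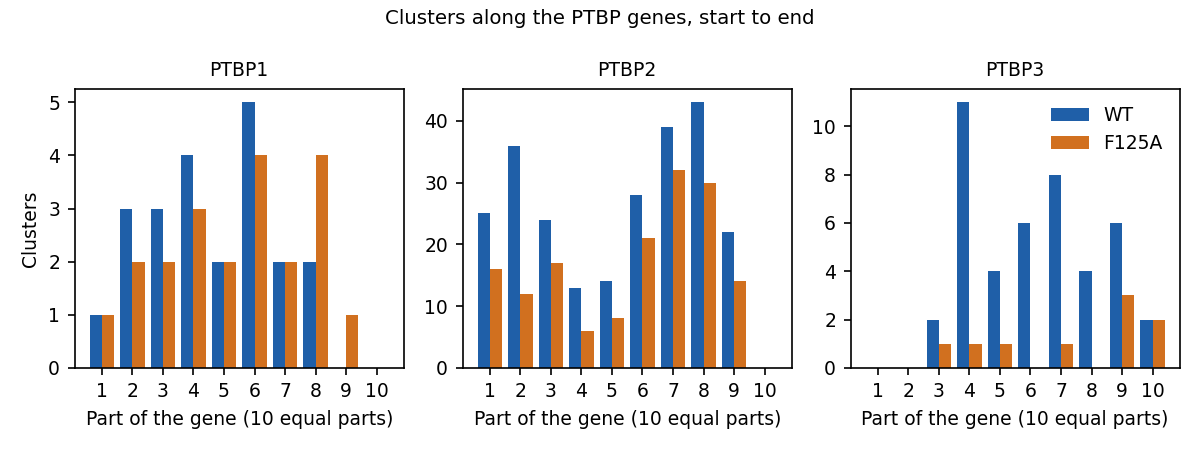
Number of clusters in each of 10 equal parts of the annotated gene, start to end, for PTBP1, PTBP2 and PTBP3, with WT bars in blue and F125A bars in orange and a separate count axis for each gene. PTBP2 has peaks of WT clusters in parts 2 and 8 with 36 and 43, and the F125A bars of PTBP3 are at most 3.

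Clusters of PTBP2 often touched their neighbours. Of 243 neighbouring WT pairs, 34 (14.0%) had no base between them, against 5.98% over all genes, and of 155 F125A pairs 21 (13.5%), against 5.49%. Its clusters also lay closer in general, with a median gap of 140 nt with WT and 276 nt with F125A. Over all genes the median gaps were 637 and 1022 nt, and no comparison with equally dense genes was made. Joining clusters closer than 50 nt left 172 WT and 120 F125A clusters. The longest joined stretch was nearly the same in both lists, chr1:96806360-96806705 with WT and chr1:96806359-96806694 with F125A, each of 3 clusters. The densest 1 kb of WT clusters held 11, from 96796770 to 96797810, and 5 F125A clusters touched that stretch.

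The longest cluster of PTBP2 lay beyond the midpoint of the gene in each list. With WT it was chr1:96786504-96786680, 177 nt long and 64.7 kb from the gene start, and F125A had clusters of 77 and 142 nt there. With F125A it was chr1:96805984-96806153, 170 nt long, and WT had clusters of 94 and 141 nt there. The outermost clusters differed: the F125A list began at chr1:96722045-96722115, 261 nt from the gene start, and ended at chr1:96813138-96813191, both without a WT partner. The last WT cluster, chr1:96812297-96812447, had no F125A partner either, and in both lists the last 10.5 kb of the gene were empty. The longest gap was 2.26 kb with WT and 4.38 kb with F125A, and 4 WT clusters lay inside the latter.

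Along PTBP1, 6 of the 7 F125A clusters without a WT partner lay beyond the midpoint of the gene, 1 of them only just. WT clusters numbered 7 in parts 1 to 3, 13 in parts 4 to 7 and 2 in parts 8 to 10, and F125A clusters 5, 11 and 5, blocks again chosen after the values were seen. In both lists the first cluster lay about 190 nt from the gene start, chr19:797642-797684 with WT and chr19:797641-797688 with F125A. Neighbouring clusters at 799566 and 799620 began at the same base in both lists. All 5 F125A clusters of parts 1 to 3 had a WT partner, as had 5 of the 7 WT clusters there an F125A partner. In parts 8 to 10 both WT clusters had a partner and 1 of 5 F125A clusters did.

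The last WT cluster of PTBP1, chr19:808046-808121, 76 nt long, was also its longest and overlapped an F125A cluster by 42 nt. Beyond it the F125A list alone had clusters: chr19:808688-808843, which at 156 nt was the longest of PTBP1, chr19:808921-808967 and chr19:809786-809842. The F125A clusters without a partner were these 3, the cluster at miR-4745, chr19:803598-803684, and an adjoining pair at chr19:807810-807874 and chr19:807875-807939. Of these 7, 6 lay beyond the midpoint of the gene, the cluster at miR-4745 only just, at 0.504 of its length. All 21 F125A clusters of PTBP1 had a median start 7.47 kb along its 14.9 kb, near the midpoint. With so few clusters, a difference in place was not tested. The 6 WT clusters without a partner were 3 before it and 3 beyond it. The densest 1 kb held 5 WT clusters, first from 801434 to 802478, and 4 F125A clusters, first from 807343 to 808087.

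PTBP3 had clusters over the later part of its annotated length only. Its gene runs 46.9 kb further upstream than the start site of its promoter window, at 112333026, and neither list had a cluster in that stretch. The first cluster came 327 nt after that start site with WT, chr9:112332571-112332699, and 359 nt after it with F125A, chr9:112332614-112332667, which lay wholly inside the WT cluster. That WT cluster was the longest of PTBP3, at 129 nt. Over the span from first to last cluster in place of the annotated gene, PTBP3 had 0.41 WT clusters per kb, above its interval by annotated length and still below the other members.

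Of the 9 F125A clusters of PTBP3, 5 lay in parts 9 and 10 of the gene (55.6%, interval 21.2 to 86.3%), as did 8 of 43 WT clusters (18.6%, 8.39 to 33.4%), intervals that overlap. These blocks too were chosen after the values were seen. In parts 3 to 8 of the gene there were 35 WT and 4 F125A clusters, and each of the 5 F125A clusters of parts 9 and 10 had a WT partner. The first of these 5 was chr9:112238086-112238144 and the last chr9:112228798-112228849. Between 112238145 and 112279621, 41.5 kb, the F125A list had no cluster and the WT list 11. The WT gap was shorter, 16.4 kb from 112238140 to 112254490.

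Elsewhere in PTBP3 the F125A list had 4 clusters. The place chr9:112312306-112312358 had the same first and last base in both lists, the only such cluster among the members. The cluster chr9:112279622-112279697, 76 nt, shared 48 nt with a WT cluster. The cluster chr9:112320873-112320911 was the only F125A cluster of PTBP3 without a partner. The densest 1 kb of WT clusters held 4, from 112317929 to 112318481, 3 of them within 212 nt, and no F125A cluster touched that stretch. Last came a WT and an F125A cluster about 11.1 kb before the gene end.

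Genes most like each member were found from 4 measures, gene length, WT clusters per kb, log2 ratio and F125A partner share, over 5624 genes, each measure divided by its SD. Likeness is a description of these lists. PTBP1 was nearest to CCT6A, a chaperonin subunit (15 WT and 15 F125A clusters, ratio -0.96), SSBP1, a mitochondrial DNA-binding protein (15 and 13, -0.77), and HMGA1, an architectural chromatin protein (12 and 12, -0.96), at distances of 0.34, 0.47 and 0.52. PTBP2 was nearest to UBE2E1, a ubiquitin-conjugating enzyme (196 and 120, -0.26), SCAF8, an RNA polymerase-associated factor (210 and 128, -0.25), and URI1, a prefoldin-like protein (228 and 158, -0.44), at 0.22, 0.23 and 0.35. PTBP3 was nearest to CFAP44, a cilium protein (40 and 8, 1.23), MPPED2 (48 and 10, 1.19) and SLX4IP (44 and 10, 1.07), at 0.17, 0.29 and 0.35.

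Proteins related to PTBP or known as its partners were taken as a list of 15 genes, of which 14 had a cluster and 11 had enough to be tested. Of these 11, 4 lay above 0 and 7 below, 1 lay 2-fold or more toward WT and none toward F125A, and their median was -0.58, beside -0.04 over all genes tested and 0.06 relative to genes of similar length. The 4 with most WT clusters were MBNL1, an exon regulator (158 WT and 63 F125A clusters, ratio 0.35), CELF1, an RNA-binding protein of splicing and decay (110 and 70, -0.32), MATR3, a nuclear matrix protein that binds PTBP1 and is part of LASR (104 and 102, -0.93), and PCBP2, which binds poly(C) (80 and 71, -0.79). NOVA1, a neuronal splicing regulator named because it was the gene past 2-fold, had 50 and 12 (1.01, interval 0.17 to 2.14). Relative to genes of similar length it lay at 0.88, inside 2-fold.

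A list of genes in which PTBP proteins are known to control an exon had 18 members, of which 16 had a cluster and 13 were tested. Of these, 4 lay above 0 and 9 below, none 2-fold or more in either direction, with a median of -0.27, or -0.18 relative to genes of similar length. Among those with many WT clusters were CACNA1C, a calcium channel (120 and 40, 0.60), SHTN1, shootin (78 and 34, 0.21), and FGFR2, a growth factor receptor (56 and 25, 0.17). All of these were among the 4 above 0, and relative to genes of similar length they lay at 0.18, 0.005 and 0.08. By its ratio alone PTBP3 lay above each of the 13 tested genes, whose highest ratio was that of CACNA1C. The intervals of PTBP3 (0.24 to 2.52) and CACNA1C (0.095 to 1.18) overlapped. PTBP3 ranked 90th of all 5626 genes tested, so few genes of any kind lay above it.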

How the data were processed

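Nuclease-protected RNA of 3 WT, 2 F125A and 1 Control sample was sequenced. Per the labels' protocols, primers carried 4-nt molecular identifiers and inserts of 20 to 80 nt were selected. The submitters' processing notes name cutadapt, STAR and the build hg38. The sources used here do not say how clusters were called, how samples were combined or whether the control was used. The authors deposited 1 list per Rbfox1 group with other values only: the place, gene and strand of each cluster, with no read count or score. Positions are printed 1-based, taking starts as 0-based.

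From these lists, 7029 repeated WT rows and 4851 repeated F125A rows were dropped. Gene bounds, promoter windows (250 bases before to 50 after a start) and microRNAs are RefSeq's for GRCh38.p14; 99.99% of matched clusters lay inside their gene. No member was among the 5433 consecutive rows that both lists share. Ratios used genes with at least 20 clusters, and similar length means the same of 20 bins. Intervals are exact Poisson for counts and Clopper-Pearson for shares, in Python 3.11.15 with scipy 1.17.1. Overlaps and ratios were tested on simulated data. Named are the members, the 3 genes most like each and up to 4 per gene list; any other is marked, and the values of some single genes are not reported here. Planned sequence counts were limited to promoter windows, and protein identity was left out. Members, lists and tests were chosen with earlier results of these data known. Alternatives changed merging, repeats, the added count, centring, the overlap rule and the length used.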

Additional observations from a re-analysis of the deposited data

How the results depend on the processing

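Of 73 alternative values for the members and for the number of genes past 2-fold, 65 stayed within the main value's counting interval, quartiles or 1.5-fold range and on the same side of 2-fold. The log2 ratio of PTBP2 ran from -0.41 to -0.28, that of PTBP1 from -1.07 to -0.18 and that of PTBP3 from 0.82 to 1.56 over 7 alternatives each, and no sign changed. PTBP1 passed 2-fold toward F125A with clusters closer than 50 nt merged (-1.07) and with nt covered in place of clusters (-1.07). PTBP3 fell short of 2-fold with 5 added (0.82). By construction, a larger added count draws small counts toward equal numbers in both lists, which on this scale is a lean toward F125A. PTBP3 had 0.41 WT clusters per kb over the span from first to last cluster, a shorter length by construction. The share of PTBP2 F125A clusters with a partner was 94.2% within 20 nt, a looser rule by construction. Genes 2-fold or more toward WT numbered 141, or 263 with at least 10 clusters and 36 with 5 added, and toward F125A 112, or 273 with at least 10 clusters; the smaller minimum tests more genes. Leaving out the identical stretch for the ratio was chosen after seeing the data. No paired analysis was possible because each group has 1 list and no values per sample, so no replicate could be left out either. Read depth is unknown, and the 9 F125A clusters of PTBP3 and 21 of PTBP1 limit every share and ratio given for them.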
